A study of Homo sapiens with 6 samples.

Results

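The MHC class I antigen presentation genes were followed in SK-N-AS, a long-established line of human neuroblastoma cells. The group held 9 genes chosen by symbol, out of 58735 genes in the deposited tables: the heavy chain genes *HLA-B*, *HLA-C*, *HLA-E* and *HLA-F*, the light chain gene *B2M*, the peptide transporter genes *TAP1* and *TAP2*, the tapasin gene *TAPBP* and the transactivator gene *NLRC5*. The list does not hold every class I heavy chain gene. The rule that names them uses no measured value, although the list was drawn up with earlier results of these libraries known.

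SK-N-AS cells received either an siRNA that targets Prp19 (siPrp19) or a control siRNA (NC), and according to the labels total RNA was taken after 72 h, while the published methods state an earlier time. Prp19, encoded by *PRPF19*, is a core factor of the pre-mRNA splicing machinery. Each group held 3 libraries, and RNA abundance was given as FPKM, which is a fragment count divided by exon length and library size. The labels give the same line, growth conditions and time for both groups and name no other agent.

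MHC class I molecules carry peptides made inside the cell to its surface, where cytotoxic T cells and natural killer cells inspect them. A polymorphic or conserved heavy chain pairs with the β2-microglobulin light chain, TAP1 and TAP2 together pump peptides from the cytosol into the endoplasmic reticulum, and tapasin holds the empty class I molecule at the transporter until a peptide binds. NLRC5 is the nuclear transactivator of the class I genes, whose promoters also carry sites for NF-κB and for the interferon regulatory factors (IRFs), and low class I expression is a known property of many neuroblastomas.

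The group of 2 libraries differed between their value column and the deposited record. The column named NCb lay in the record of an siPrp19 sample, and the column named siPrp19b lay in the record of an NC sample. *PRPF19* (chr11:60890730-60906588, minus strand, hg38) stood at 83.0, 83.1 and 93.0 FPKM in NCa, NCb and NCc, and at 19.6, 19.1 and 18.5 FPKM in siPrp19a, siPrp19b and siPrp19c. The target thus followed the column names, with a log2 fold change of -2.12 ± 0.07 (SE; adjusted p = 0.000215, limma). Grouped by the deposited record, *PRPF19* stood at 65.0 ± 40.1 and 40.4 ± 36.9 FPKM (SD, n = 3 each), and the groups overlapped. The class I genes are therefore given by value column, beside their changes or ratios in the 4 libraries whose column and record name the same group (NCa, NCc, siPrp19a and siPrp19c) and by the deposited record. Other genes are given by value column, with the calls of the other groupings as counts.

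The reads behind the FPKM values, recovered from their steps, ranged from 14887132 to 19977811 per library. No pair of libraries was as close as sampling noise, yet NCa and NCb (chi-square per degree of freedom 1.67) and siPrp19b and siPrp19c (2.45) were far closer to each other than the other 13 pairs (16.0 to 41.3). Library siPrp19a lay as far from siPrp19b (16.0) as NCb did (16.1), and it held 8.29% of its reads on mitochondrial genes against 5.15% to 5.49% in the other 5 libraries. The published methods state 3 biological replicates per sample, without saying how they were made. Nothing in the labels says that the 3 libraries of a group came from separate cultures. The p-values therefore measure the spread between these libraries, which may be technical. Of the 9 genes, 8 reached a mean of 1 FPKM and were tested among 13718 genes, whereas *HLA-F* did not.

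The promoters of 7 of the 9 genes were present in the RefSeq table used here (GRCh38.p14), and *HLA-E* and *NLRC5* were not. The stretches below lie upstream of the RefSeq start site and are shown because they hold the elements through which class I genes are known to be controlled. Capitals mark a match on either strand to 7 motifs, which were the NF-Y box CCAAT, the cyclic AMP response core TGACG, a longer IRF form GAANNGAAA, a shorter NF-κB form GGGANTNCC, the E-box motif CACGTG, the IRF core AANNGAAA and the NF-κB decamer. The last 2 motifs were added after the sequences had been seen. The stretches, each written 5′ to 3′ on the strand of its gene, were taken from chr6:31357223-31357364 (minus) for *HLA-B*, chr6:31272136-31272292 (minus) for *HLA-C*, chr15:44711367-44711480 (plus) for *B2M*, chr6:32853759-32853846 (minus) for *TAP1*, chr6:32838762-32838810 (minus) for *TAP2* and chr6:33314079-33314142 (minus) for *TAPBP*.
HLA-B: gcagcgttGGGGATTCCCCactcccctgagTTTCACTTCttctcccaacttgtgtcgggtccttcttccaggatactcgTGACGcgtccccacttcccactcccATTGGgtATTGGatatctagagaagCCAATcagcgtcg
HLA-C: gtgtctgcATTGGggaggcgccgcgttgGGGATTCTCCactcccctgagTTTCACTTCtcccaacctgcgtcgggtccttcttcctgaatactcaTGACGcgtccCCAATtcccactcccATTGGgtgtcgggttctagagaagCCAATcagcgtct
B2M: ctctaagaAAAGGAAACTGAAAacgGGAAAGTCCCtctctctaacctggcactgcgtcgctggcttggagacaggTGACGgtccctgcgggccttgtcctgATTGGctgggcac
TAP1: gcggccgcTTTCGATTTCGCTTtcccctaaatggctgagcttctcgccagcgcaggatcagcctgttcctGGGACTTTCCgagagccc
TAP2: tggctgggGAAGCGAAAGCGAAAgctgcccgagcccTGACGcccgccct
TAPBP: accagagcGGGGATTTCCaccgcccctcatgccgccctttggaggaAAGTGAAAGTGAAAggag

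The heavy chain promoters of *HLA-B* and *HLA-C* were laid out alike. Both held an IRF core and TGACG between the NF-κB decamer and a row of CCAAT boxes, with 3 CCAAT matches in *HLA-B* and 4 in *HLA-C*, 1 of which lay upstream of the decamer. *HLA-B* held GGGANTNCC and *HLA-C* did not. The *TAP1* stretch held an IRF core at 2 positions and an NF-κB decamer 72 bases before the start site, and its window held a CCAAT match and another decamer outside the stretch shown. A second RefSeq window of *TAP1* held none of the 7 motifs. *B2M* held CCAAT together with TGACG, 2 IRF cores and a decamer, *TAP2* held TGACG and 2 IRF cores, and *TAPBP* held 2 IRF cores and a decamer. GAANNGAAA was found in *HLA-B*, *HLA-C* and *TAP2*, and GGGANTNCC in *HLA-B* and *TAPBP*. The window of *HLA-F* (not shown) held 2 CCAAT matches and 1 IRF core. The motif CACGTG, which MYC and MYCN bind, was in none of the windows. Among all 35116 promoter windows of the same length, 34.6% held CCAAT, 24.6% TGACG, 7.66% GAANNGAAA, 4.35% GGGANTNCC, 7.26% CACGTG, 22.8% the IRF core and 11.3% the NF-κB decamer. The motif search overlaps in part, since GAANNGAAA contains the IRF core and GGGANTNCC can lie inside the decamer.

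In these cells the RNA of the class I genes stood at very unequal FPKM levels. Averaged over the 6 libraries, the FPKM level of *B2M* was above that of 98.1% of the 13718 tested genes, *HLA-E* above 89.4%, *TAPBP* above 88.2%, *HLA-C* above 85.9% and *HLA-B* above 82.1%. *TAP1* was above 67.1%, *TAP2* above 31.4% and *NLRC5* above 14.1% of the tested genes. *B2M* exceeded the next gene, *HLA-E*, by 3.29 to 4.34 times within a library. This order held in 6 of 6 libraries for every pair of neighbours except *HLA-E* over *TAPBP* and *TAPBP* over *HLA-C*, each of which held in 5 of 6. The length in these FPKM values is that of all annotated exons merged (6079 bases for *B2M*, 2975 for *HLA-E*). Levels of different genes therefore depend on the annotation, and in NCa *B2M* held 9822 reads and *HLA-E* 1214.

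**Figure D1:**
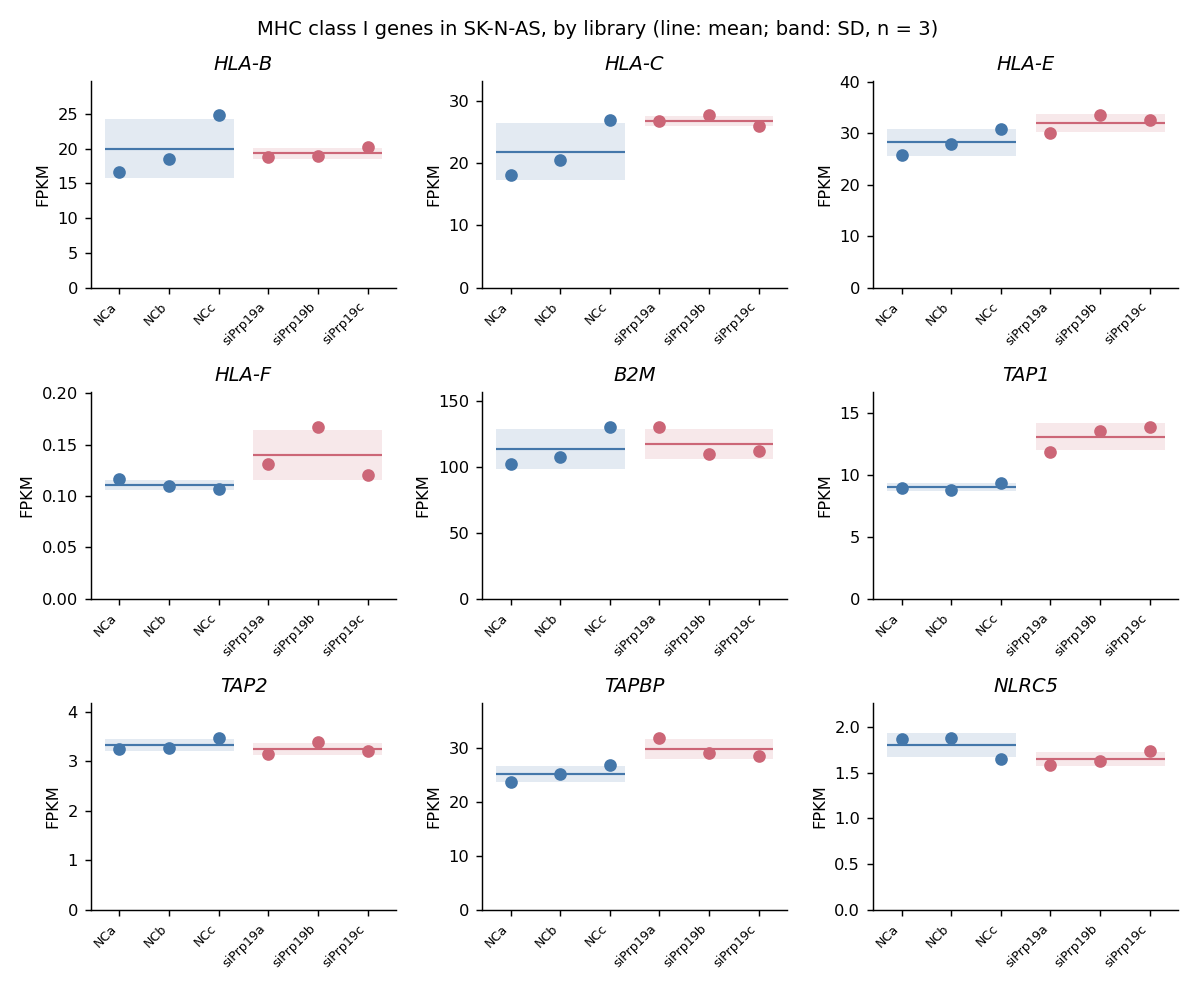
FPKM (linear axis from 0) of each of the 9 genes in the 6 libraries named by value column, NC in blue and siPrp19 in red, with the group mean as a line and the SD as a band (n = 3). *TAP1*, *TAPBP* and *HLA-F* have no siPrp19 library below an NC library, and the other 6 genes overlap between the groups.

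In the siPrp19 libraries *TAP1* was higher, and none of the other 7 tested genes passed the test. *TAP1* rose 1.45-fold, *TAP2* stood at 3.33 FPKM in NC and 3.25 FPKM in siPrp19, and the *HLA-B* and *B2M* means moved by -3.23% and 3.57%. In all, 1 of 8 tested genes passed an adjusted p of 0.05 (limma), against 7.94% of all 13718 tested genes (1089 genes), of which 2.57% were higher and 5.37% were lower in siPrp19. The median log2 fold change was 0.12 over the 8 genes and -0.02 over all tested genes. Non-overlapping groups were seen in 2 of the 8 genes (25%) and in 31.3% of all tested genes. These libraries are bulk RNA, in which fewer cells that express a gene and less RNA of it per cell cannot be told apart.

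*TAP1* (ENSG00000168394, chr6:32845209-32853978, minus strand, GENCODE 29 on hg38) encodes the TAP1 chain of the peptide transporter. It stood at 8.96, 8.75 and 9.34 FPKM in NCa, NCb and NCc, and at 11.8, 13.5 and 13.9 FPKM in siPrp19a, siPrp19b and siPrp19c, from 620 to 1403 reads. Each siPrp19 library was above each NC library, and siPrp19a was the lowest of the 3. The mean rose from 9.02 ± 0.299 to 13.1 ± 1.10 FPKM (SD, n = 3 each), which is 45.2% higher. On the log2(FPKM + 1) scale the change was 0.49 ± 0.08 (SE; 95% interval 0.31 to 0.67) with an adjusted p of 0.0148 (limma), placing *TAP1* at rank 380 of all tested genes by p. In the 4 libraries the level was 9.15 ± 0.266 against 12.9 ± 1.46 FPKM (SD, n = 2 each), with a log2 change of 0.45 and an adjusted p of 0.269, so that the direction held and the call did not. By the deposited record the means were 10.6 ± 2.54 and 11.5 ± 2.60 FPKM and the log2 change was 0.11 (adjusted p = 1.00). The call was also lost on leaving out NCa (adjusted p = 0.0705), NCb (0.0683), siPrp19b (0.0764) or siPrp19c (0.0742), with log2 changes of 0.45 to 0.49 in these limma fits.

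*TAP1* shares 456 of its 4805 exon bases (9.49%) with *PSMB8-AS1*, a long non-coding RNA gene on the opposite strand, and whether the counting used strand is not given in the sources used here. *PSMB8-AS1* held 10 to 30 reads per library, at 0.348 to 0.715 FPKM in NC and 0.324 to 0.732 FPKM in siPrp19, so its groups overlapped and its reads were few beside those of *TAP1*. No stretch of 100 bases of the *TAP1* transcripts occurs in the transcripts of another gene.

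*TAP2* (ENSG00000204267, chr6:32821833-32838780, minus strand) encodes the partner chain of the transporter. It stood at 3.25, 3.27 and 3.48 FPKM in the NC libraries and at 3.15, 3.38 and 3.21 FPKM in the siPrp19 libraries in the order a, b and c. The groups overlapped, and the log2 change of -0.03 ± 0.07 (SE; 95% interval -0.20 to 0.14) did not pass (adjusted p = 0.853, limma). It was -0.06 in the 4 libraries (adjusted p = 0.870, limma) and -0.05 by the deposited record (adjusted p = 1.00). Its sign turned with the recovered reads (0.04) and with the libraries scaled to the same sum (0.0056). The level itself is uncertain, since 32.3% of the exon bases of *TAP2* also belong to ENSG00000250264, a gene model on the same strand that was listed at 0 in every library.

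In the plot of within-library ratios, the RNA ratio of the 2 transporter genes did not overlap between the groups by value column. The ratio of *TAP1* to *TAP2* was 2.76, 2.68 and 2.69 in NCa, NCb and NCc, and 3.76, 4.001 and 4.33 in siPrp19a, siPrp19b and siPrp19c. The ratio does not depend on how the libraries were scaled. The mean was 48.9% higher, going from 2.71 ± 0.0433 to 4.03 ± 0.286 (SD, n = 3 each), with a two-sided exact permutation p of 0.1, the smallest that 3 against 3 libraries can give, and 0.125 after Benjamini-Hochberg adjustment over the 5 ratios computed. The ratio was 2.72 against 4.04 in the 4 libraries (means, n = 2 each), and 3.15 ± 0.739 against 3.59 ± 0.839 by the deposited record (SD, n = 3 each; exact permutation p = 0.7). These ratios were chosen with the levels in view.

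**Figure D2:**
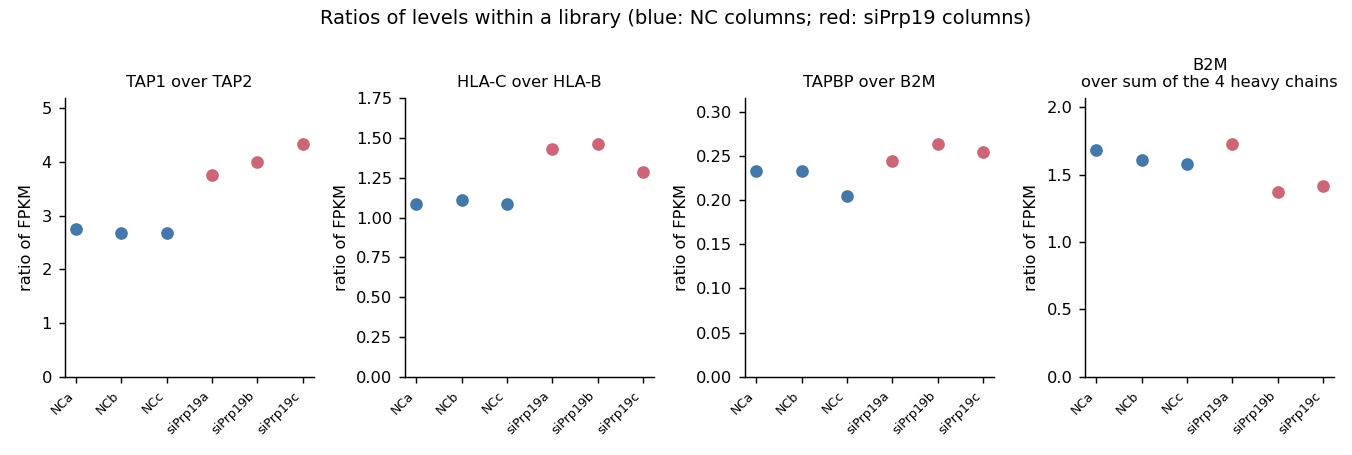
Ratios of FPKM within each library (linear axes from 0, NC columns in blue, siPrp19 columns in red, 1 point per library). *TAP1* over *TAP2*, *HLA-C* over *HLA-B* and *TAPBP* over *B2M* were each higher in the 3 siPrp19 libraries than in the 3 NC libraries, whereas *B2M* over the sum of the 4 heavy chains overlapped.

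*TAPBP* (ENSG00000231925, chr6:33299694-33314387, minus strand) encodes tapasin, the chaperone that edits the peptides of class I molecules. It stood at 23.7, 25.1 and 26.8 FPKM in NCa, NCb and NCc, and at 31.9, 28.99 and 28.4 FPKM in siPrp19a, siPrp19b and siPrp19c. The groups did not overlap, and siPrp19a, the lowest siPrp19 library for *TAP1*, was the highest for *TAPBP*. The mean was 25.2 ± 1.53 against 29.8 ± 1.84 FPKM (SD, n = 3 each), a difference of 18.2%. The log2 change of 0.23 ± 0.08 (SE; 95% interval 0.05 to 0.42) had an adjusted p of 0.127 (limma) and was not called. It was called with quantile normalization (0.34, adjusted p = 0.0490) and on the recovered reads with limma's voom weights (0.32, adjusted p = 0.0372). On those reads 2 of the 8 genes, *TAP1* and *TAPBP*, passed, where 9.99% of all tested genes did. The log2 change of *TAPBP* in the 4 libraries was 0.25 (adjusted p = 0.538, limma), and by the deposited record it was 0.10 (adjusted p = 1.00).

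*HLA-C* (ENSG00000204525, chr6:31268749-31272130, minus strand) encodes a classical heavy chain that is also read by killer cell immunoglobulin-like receptors. It stood at 18.1, 20.6 and 27.0 FPKM in NCa, NCb and NCc, and at 26.8, 27.7 and 26.1 FPKM in siPrp19a, siPrp19b and siPrp19c. The siPrp19 libraries lay close together, while NCc was as high as they were and set the overlap. The means were 21.9 ± 4.58 and 26.9 ± 0.825 FPKM (SD, n = 3 each), and the log2 change of 0.30 ± 0.14 (SE; 95% interval -0.02 to 0.63) did not pass (adjusted p = 0.241, limma). Without NCc it was 0.46 with an adjusted p of 0.0220 (limma). In the 4 libraries, which keep NCc, it was 0.25 (adjusted p = 0.655), and by the deposited record it was 0.03 (adjusted p = 1.00).

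*HLA-B* (ENSG00000234745, chr6:31269491-31357188, minus strand) encodes another classical heavy chain. It stood at 16.6, 18.5 and 24.8 FPKM in NCa, NCb and NCc, and at 18.8, 19.0 and 20.3 FPKM in siPrp19a, siPrp19b and siPrp19c. As for *HLA-C*, NCc was the highest NC library, and here it was above every siPrp19 library. The means were 19.997 ± 4.27 and 19.4 ± 0.824 FPKM (SD, n = 3 each), and the log2 change of -0.03 ± 0.14 (SE; 95% interval -0.35 to 0.30) did not pass (adjusted p = 0.931, limma). It was -0.06 in the 4 libraries (adjusted p = 0.927, limma) and -0.05 by the deposited record (adjusted p = 1.00). Its sign turned with quantile normalization (0.06), with the libraries scaled to the same sum (0.01), with the recovered reads (0.05) and without NCc (0.13).

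Both classical heavy chain genes were lowest in NCa and highest in NCc among the NC libraries, and their ratio hardly varied there. *HLA-C* over *HLA-B* was 1.09, 1.11 and 1.09 in NCa, NCb and NCc, and 1.43, 1.46 and 1.29 in siPrp19a, siPrp19b and siPrp19c. The mean ratio was 27.0% higher, going from 1.10 ± 0.0129 to 1.39 ± 0.0925 (SD, n = 3 each), again with the smallest exact permutation p of 0.1 (0.125 adjusted over the 5 ratios). It was 1.09 against 1.36 in the 4 libraries (means, n = 2 each), and 1.21 ± 0.215 against 1.28 ± 0.159 by the deposited record (SD, n = 3 each; exact permutation p = 0.8). The gene models of *HLA-B* and *HLA-C* share 35 exon bases on the same strand. Of their stretches of 100 transcript bases, 0% in *HLA-B* and 0.126% in *HLA-C* occurred in another gene's transcripts. These are matches between annotated transcripts, and the line's own HLA alleles are not given. How reads were assigned between *HLA-B* and *HLA-C* was therefore not tested. A further 17.8% of the exon bases of *HLA-B* are covered on the other strand by the pseudogene ENSG00000271581, which held 0 to 2 reads per library.

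*HLA-E* (ENSG00000204592, chr6:30489467-30494205, plus strand) encodes a conserved heavy chain that presents leader peptides of other class I chains to NKG2 receptors. It was the highest of the 4 heavy chain genes, at 25.8, 27.9 and 30.9 FPKM in NCa, NCb and NCc, and at 30.1, 33.5 and 32.5 FPKM in siPrp19a, siPrp19b and siPrp19c. NCc overlapped with siPrp19a. The means were 28.2 ± 2.57 and 32.0 ± 1.72 FPKM (SD, n = 3 each), and the log2 change of 0.18 ± 0.09 (SE; 95% interval -0.02 to 0.39) did not pass (adjusted p = 0.265, limma). It was 0.15 in the 4 libraries (adjusted p = 0.716) and 0.01 by the deposited record (adjusted p = 1.00).

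*HLA-F* (ENSG00000204642, chr6:29722775-29738528, plus strand), a conserved heavy chain with little surface expression in most cells, was barely detected. It stood at 0.116, 0.109 and 0.107 FPKM in NCa, NCb and NCc, and at 0.131, 0.167 and 0.121 FPKM in siPrp19a, siPrp19b and siPrp19c, which is 7 to 12 reads per library. The groups did not overlap, at 0.111 ± 0.0048 and 0.140 ± 0.0245 FPKM (SD, n = 3 each; two-sided exact permutation p = 0.1, the smallest possible). By the deposited record that p was 0.9. With so few reads, and with 28.5% of its exon bases covered by genes on the other strand, no difference in *HLA-F* could be read at this depth.

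*B2M* (ENSG00000166710, chr15:44711487-44718877, plus strand) encodes β2-microglobulin, the light chain shared by all these heavy chains. It stood at 102, 108 and 131 FPKM in NCa, NCb and NCc, and at 131, 110 and 112 FPKM in siPrp19a, siPrp19b and siPrp19c, from 9661 to 14288 reads. The highest NC library and the highest siPrp19 library had the same level, and the other 4 libraries lay between 102 and 112 FPKM. The means were 114 ± 15.2 and 118 ± 11.3 FPKM (SD, n = 3 each), with a log2 change of 0.05 ± 0.12 (SE; 95% interval -0.23 to 0.34; adjusted p = 0.832, limma). It was 0.07 in the 4 libraries (adjusted p = 0.911, limma) and 0.03 by the deposited record (adjusted p = 1.00). Its sign turned without NCa (-0.02) and without siPrp19a (-0.02).

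Per length of merged annotated exons, the light chain RNA stood above the 4 heavy chain RNAs together. This length was 6079 bases for *B2M* and 2507 to 4342 bases for the heavy chain genes, so the comparison depends on the annotation. The 4 heavy chain genes summed to 60.6, 67.2 and 82.8 FPKM in NCa, NCb and NCc, and to 75.8, 80.4 and 79.1 FPKM in siPrp19a, siPrp19b and siPrp19c. *B2M* over this sum was 1.62 ± 0.0540 in NC and 1.503 ± 0.192 in siPrp19 (SD, n = 3 each; two-sided exact permutation p = 0.4), 1.63 and 1.57 in the 4 libraries, and 1.54 and 1.58 by the deposited record (exact permutation p = 0.7). Tapasin relative to the light chain, as *TAPBP* over *B2M*, was 0.232, 0.233 and 0.205 in NCa, NCb and NCc, and 0.244, 0.263 and 0.254 in siPrp19a, siPrp19b and siPrp19c (exact permutation p = 0.1, 0.125 adjusted over the 5 ratios). Its means were 0.219 and 0.249 in the 4 libraries, and 0.233 and 0.243 by the deposited record (exact permutation p = 0.6).

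*NLRC5* (ENSG00000140853, chr16:56989485-57083531, plus strand) encodes the transactivator that is recruited to class I promoters. It stood at 1.87, 1.88 and 1.65 FPKM in NCa, NCb and NCc, and at 1.58, 1.63 and 1.74 FPKM in siPrp19a, siPrp19b and siPrp19c, from 309 to 452 reads. NCa and NCb were the highest libraries, and siPrp19c lay above NCc. The means were 1.80 ± 0.131 and 1.65 ± 0.0806 FPKM (SD, n = 3 each), and the log2 change of -0.08 ± 0.09 (SE; 95% interval -0.29 to 0.14) did not pass (adjusted p = 0.662, limma). It was -0.05 in the 4 libraries (adjusted p = 0.912), and by the deposited record its sign turned (0.01, adjusted p = 1.00).

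**Figure D3:**
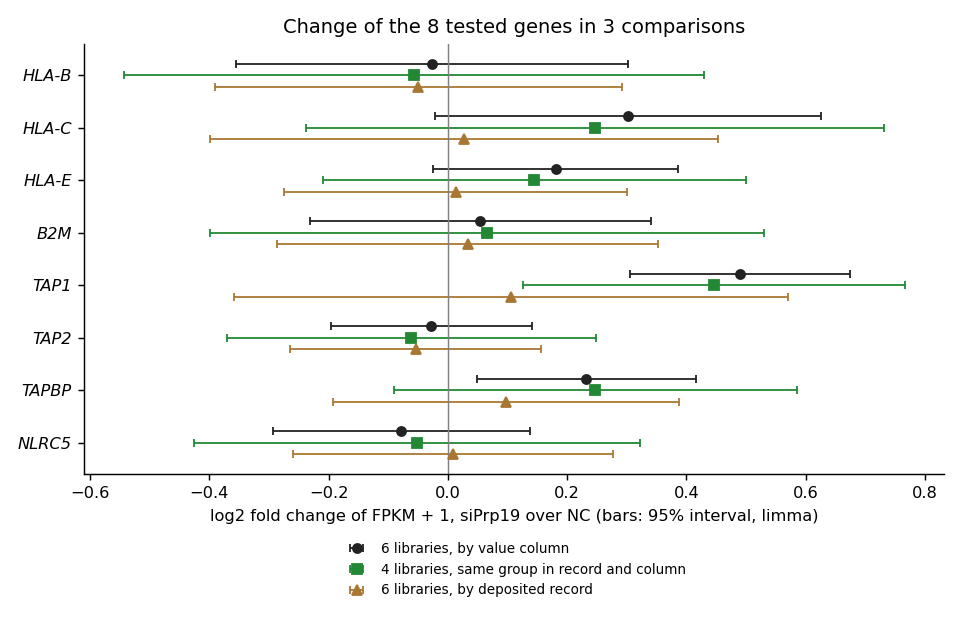
Log2 fold change of FPKM + 1 (siPrp19 over NC) of the 8 tested genes with 95% intervals from limma, by value column (black circles), in the 4 libraries with one group in column and record (green squares) and by the deposited record (brown triangles). By value column the intervals of *TAP1* (0.31 to 0.67) and *TAPBP* (0.05 to 0.42) lie above 0, and by the deposited record every interval includes 0.

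In the 4 libraries and by the deposited record none of the 8 genes was called. In the 4 libraries 0 of 8 passed limma's adjusted p, where 2 of 13718 genes (0.0146%) did, and 1 of the 8 genes (*TAP1*) was under an unadjusted p of 0.05. By the deposited record 0 of 8 passed, as did 0 of 13718 genes (0%), with 0 of the 8 genes and 191 of all genes under an unadjusted p of 0.05 (limma). Among the genes not called by value column, the 95% interval on the log2(FPKM + 1) scale was narrowest for *TAP2* (-0.20 to 0.14). It was widest for *HLA-B* (-0.35 to 0.30). This order depends on the pseudocount, since with a pseudocount of 0.1 the SE was 0.087 for *TAP2* and 0.081 for *TAPBP*.

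Other genes of the pathway were called in both directions. Over 8 lists of pathway genes, 69 of 95 genes were tested, and 1 was higher and 6 were lower in siPrp19 (10.1%, against 7.94% of all tested genes). In the 4 libraries, and by the deposited record, 0 of these 69 genes passed limma's adjusted p. The lists were drawn up with earlier results of these libraries known.

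**Figure D4:**
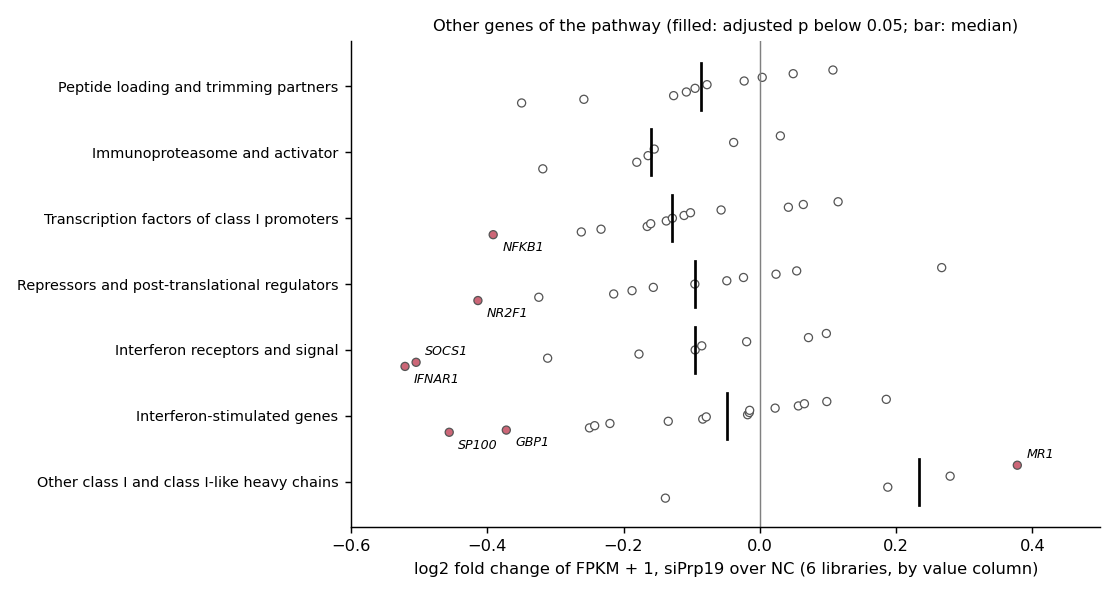
Log2 fold change of FPKM + 1 (siPrp19 over NC, 6 libraries by value column) of the tested genes of 7 pathway lists, 1 point per gene, with the list median as a bar and filled points for an adjusted p below 0.05 (limma). *MR1* is the called gene to the right of 0, the 6 other called genes lie to the left of it, and the vertical position within a list only separates the points.

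None of the 10 tested partners of peptide loading and trimming passed, with a median log2 change of -0.09. *CALR*, which encodes the chaperone calreticulin of the loading complex, stood at 553 FPKM in NC and 434 FPKM in siPrp19 (log2 change -0.35, adjusted p = 0.142, limma), and *HSPA5*, the chaperone BiP of the endoplasmic reticulum, at 404 and 369 FPKM (-0.13, adjusted p = 0.530). None of the 6 genes of the immunoproteasome and its activator passed either (median -0.16), among them the activator subunit genes *PSME1* (101.3 and 97.9 FPKM) and *PSME3* (56.9 and 58.2 FPKM).

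*PSMB9* lies next to *TAP1* in the class II region, shares a bidirectional promoter with it and encodes a catalytic subunit of the immunoproteasome. It was taken for comparison after its values were seen. *PSMB9* stood at 13.1, 12.8 and 17.4 FPKM in NCa, NCb and NCc, and at 9.42, 14.9 and 14.8 FPKM in siPrp19a, siPrp19b and siPrp19c (log2 change -0.15, adjusted p = 0.681, limma). The groups overlapped, with siPrp19a the lowest. *TAP1* over *PSMB9* was 0.683, 0.681 and 0.536 in NCa, NCb and NCc, and 1.26, 0.911 and 0.940 in siPrp19a, siPrp19b and siPrp19c, which is 63.6% higher (exact permutation p = 0.1, 0.125 adjusted over the 5 ratios). Its means were 0.610 and 1.10 in the 4 libraries, and 0.710 and 0.960 by the deposited record (exact permutation p = 0.3).

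Of 13 tested transcription factors of class I promoters, *NFKB1*, the p105/p50 subunit of NF-κB, fell, and the other 12 did not pass. *NFKB1* stood at 20.5, 19.4 and 19.2 FPKM in NCa, NCb and NCc, and at 14.5, 15.0 and 14.7 FPKM in siPrp19a, siPrp19b and siPrp19c (log2 change -0.39 ± 0.06, SE; adjusted p = 0.0141, limma). *NFYA*, a subunit of the CCAAT-binding factor, stood at 22.1 and 19.7 FPKM (-0.16, adjusted p = 0.331).

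Among 11 tested repressors and post-translational regulators of class I, *NR2F1* fell. This nuclear receptor stood at 37.5 ± 1.34 FPKM in NC and 28.0 ± 1.58 FPKM in siPrp19 (SD, n = 3 each; log2 change -0.41, adjusted p = 0.0189, limma). *EZH2*, the histone methyltransferase of the Polycomb complex, stood at 29.6 and 25.9 FPKM (-0.19, adjusted p = 0.121), and *TMEM127*, a membrane protein linked to class I turnover, at 16.5 and 17.2 FPKM (0.05, adjusted p = 0.652).

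Among 9 tested genes of interferon reception and signalling, *IFNAR1* and *SOCS1* fell. *IFNAR1*, a chain of the type I interferon receptor, stood at 15.6, 15.5 and 14.3 FPKM in NCa, NCb and NCc, and at 11.1, 9.76 and 9.88 FPKM in siPrp19a, siPrp19b and siPrp19c (log2 change -0.52 ± 0.08, SE; adjusted p = 0.0111, limma). *SOCS1*, a feedback inhibitor of the same signal, stood at 12.9 and 8.76 FPKM (-0.50, adjusted p = 0.0446). *SOCS3*, a related inhibitor, stood at 34.4 and 27.7 FPKM (-0.31, adjusted p = 0.0884), and *IFNGR2*, a chain of the interferon-γ receptor, at 44.7 and 39.4 FPKM (-0.18, adjusted p = 0.284).

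Of 16 tested interferon-stimulated genes, *SP100* and *GBP1* were called lower and none was called higher, where 5.37% of all tested genes were called lower. A positive change was seen in 5 of the 16. The median log2 change of the list was -0.05, against -0.02 over all tested genes. *SP100*, a component of nuclear bodies, stood at 4.53 and 3.04 FPKM in NC and siPrp19 (log2 change -0.46, adjusted p = 0.0350, limma), and *GBP1*, a guanylate-binding protein, at 7.84 and 5.83 FPKM (-0.37, adjusted p = 0.0188). *UBE2L6*, the conjugating enzyme for ISG15, stood at 53.0 and 48.1 FPKM (-0.13, adjusted p = 0.526). *IFI6*, whose groups overlapped, stood at 30.3, 30.3 and 42.3 FPKM in NCa, NCb and NCc, and 21.2, 42.7 and 41.5 FPKM in siPrp19a, siPrp19b and siPrp19c.

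Of 4 tested class I-like genes, *MR1*, which presents microbial vitamin B metabolites and pairs with β2-microglobulin, rose. It stood at 2.01, 1.82 and 1.86 FPKM in NCa, NCb and NCc, and at 2.82, 2.79 and 2.69 FPKM in siPrp19a, siPrp19b and siPrp19c (log2 change 0.38 ± 0.08, SE; adjusted p = 0.0338, limma). The groups did not overlap. *PROCR*, the endothelial protein C receptor, stood at 16.6 and 19.1 FPKM (0.19, adjusted p = 0.201), and *FCGRT*, the heavy chain of the neonatal Fc receptor, at 6.83 and 6.09 FPKM (-0.14, adjusted p = 0.533).

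The genes whose log2(FPKM + 1) over the 6 libraries was most like that of a class I gene differed from gene to gene. For *TAP1* they were *ECHDC3* (Pearson r = 0.999), *SLC27A1* (0.998) and *ZNF219* (0.997), for *B2M* *C14orf119* (0.995), *SAP30-DT* (0.992) and *AC019080.5* (0.982), and for *NLRC5* they included ENSG00000255320 (0.990) and *GOPC* (0.980). These are descriptions over 6 points that share library depth and group, and the 9 class I genes themselves were not candidates.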

How the data were processed

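The authors deposited 1 table per library with FPKM values for 58735 Ensembl genes. The submitters' processing notes name hg38, HISAT2 2.0.5 and featureCounts 1.5.0-p3, without their roles. The strand setting and the line's own HLA alleles are not given in the sources used here. The study's DESeq2 test of counts was not used. All genes matched GENCODE 29. Whole reads (tolerance 0.01) were recovered from the FPKM steps and exon lengths for 100% of values.

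limma 3.58.1 (R 4.3.3) with an intensity trend was run on log2(FPKM + 1) over the 13718 genes with a mean of at least 1 FPKM, with Benjamini-Hochberg adjustment, calling genes at 0.05. It was also run on simulated independent libraries with larger changes than those of the class I genes. That run cannot show how the test performs at the changes and library spread seen here. Fold changes on this scale understate those of low genes. Ratios and *HLA-F* were compared by exact permutation (scipy 1.17.1). Alternatives covered the pseudocount, filter, scaling, trend, replicate block, each library left out, the grouping and voom on the recovered reads.

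The members and lists were chosen with earlier results of these data known. All 9 members and *PRPF19* are named, with, from each list, every gene called (at most 6) and the 2 others of highest mean FPKM. For *TAP1*, *B2M* and *NLRC5* the 3 genes most alike are named. A few genes that this rule names are not reported here. Promoter sequences are those of RefSeq.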

Additional observations from a re-analysis of the deposited data

How the results depend on the processing

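In all, 185 recomputed values were compared with those reported, of which 133 kept their direction and side of the threshold or stayed close to the value. *TAP1* was positive under every alternative run, and its call was lost in the 4 libraries with one group in column and record (0.45), on the recovered reads of these 4 libraries (0.57, chosen after seeing the data) and by the deposited record (0.11). Without NCa, NCb, siPrp19b or siPrp19c the *TAP1* call was lost too (adjusted p of 0.0683 to 0.0764, limma). Leaving out 1 library in turn gave log2 changes of 0.45 to 0.56 for *TAP1*, 0.18 to 0.46 for *HLA-C*, -0.14 to 0.13 for *HLA-B* and -0.023 to 0.16 for *B2M*. *TAPBP* was called with quantile normalization (0.34) and on the recovered reads (0.32). Signs turned for *HLA-B* with quantile normalization (0.0592), with the libraries scaled to the same sum (0.0146), on the recovered reads (0.0480) and in their 4 libraries (0.0201), for *TAP2* with the libraries scaled to the same sum (0.0056), on the recovered reads (0.0398) and in their 4 libraries (0.00084), and for *NLRC5* by the deposited record (0.0089) and on the recovered reads of the 4 libraries (0.0033). The causes of these shifts were not tested.

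Over all genes, 1089 were called. Without the filter on low values 512 were, with the libraries scaled to the same sum 679, in the 4 libraries 2, on their recovered reads 266, by the deposited record 0 (191 at an unadjusted p under 0.05, limma), and with 1 library left out 253 to 1354, the lowest counts being those without NCa (264), NCb (335), siPrp19b (270) or siPrp19c (253). Of the called genes 32.4% were higher in siPrp19, against 46.1% with quantile normalization, 54.5% on the recovered reads and 20% to 33.8% with 1 library left out. The class I genes called numbered 1, but 2 with quantile normalization and on the recovered reads, 0 in the 4 libraries by either unit and by the deposited record, and 0 to 2 with 1 library left out. The pathway list genes called numbered 7, but 4 without the filter, 2 with the libraries scaled to the same sum, 0 in the 4 libraries by either unit and by the deposited record, and 0 to 5 with 1 library left out.

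Libraries with the same replicate number had deviations from their group means correlated at 0.13, -0.05 and 0.20 by value column. By the deposited record the values were 0.39, -0.17 and 0.32. Libraries with unlike numbers were not compared in this way, so these values cannot decide whether the numbers pair the libraries. With the replicate block 928 genes were called, and *TAP1* had an adjusted p of 0.0254 (limma). Depth limited *HLA-F* (7 to 12 reads) and left it untested.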

Other observations

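The RNA of the class II genes listed was low in these libraries, and class II protein was not measured. None of the 8 class II genes listed reached a mean of 1 FPKM, and *HLA-DRB1*, *HLA-DQA1* and *HLA-DMB* had 0 reads in every library. *CD74*, the invariant chain and the most abundant of them, held 25 to 63 reads per library. The sum of the 8 genes was 1.28 to 1.44 FPKM in the NC libraries and 1.62 to 1.87 FPKM in the siPrp19 libraries. *HLA-G*, a class I gene of the placenta, had 0 reads in every library.

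*PTPRC*, which encodes the leukocyte antigen CD45, was expressed at 29.8, 30.7 and 24.9 FPKM in NCa, NCb and NCc, and at 20.4, 16.9 and 17.0 FPKM in siPrp19a, siPrp19b and siPrp19c (log2 change -0.63, adjusted p = 0.0202, limma). It was singled out after its values were seen. Of the other 8 leukocyte markers listed, *CD3E*, *CD2* and *MS4A1* had 0 reads in every library, and *CD14* held at most 19. Of the markers of adrenergic neuroblastoma, 8 of 9 were tested. Of those of mesenchymal neuroblastoma, 8 of 9 were tested, and *WWTR1* (9.06 to 5.91 FPKM) fell. The 4 endothelial markers summed to 0.662 to 1.07 FPKM per library. The part of any of these in the class I values was not tested.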
